A study of Caenorhabditis elegans with 2 samples.

Results

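The genes examined here make, modify and receive the Wnt signal in Caenorhabditis elegans: the 5 Wnt ligand genes lin-44, egl-20, mom-2, cwn-1 and cwn-2, the 4 Frizzled receptor genes lin-17, mig-1, mom-5 and cfz-2, and mom-1, the Porcupine gene. These 10 genes, of 19973 nuclear protein-coding genes in the annotation, were chosen by their place in the pathway and with the strong peak at mom-1 already known. Peaks were then collected by position, from 5000 bp upstream of each gene to its annotated end, and 43 of the 30000 peaks of the pooled list had their summit in these windows. Binding of UNC-62, which belongs to the Meis/Homothorax family of homeodomain proteins, had been mapped by ChIP-seq (sequencing of DNA that co-precipitates with the protein) in a single group of 2 biological replicates. Each replicate was whole animals at the L4 larval stage of strain OP602, male and female pooled and of unknown age. Both replicates are of a stable transgenic line, labelled as an insertion targeting unc-62, in which UNC-62 carries GFP-FLAG at its C terminus. The labels give no treatment and no other genotype, and the control alignment that entered peak calling was not analysed here.

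Wnt proteins are secreted lipid-modified signals. Porcupine, an acyltransferase of the endoplasmic reticulum, attaches the lipid they need for release, and Frizzled proteins are the cell-surface receptors that bind them and pass the signal through Dishevelled to beta-catenins or to the cytoskeleton. In the worm these signals orient asymmetric divisions, from the early embryo to the tail and the vulva, and steer migrating neuroblasts and growing axons.

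The strongest UNC-62 peak at these genes lay inside mom-1. This peak ranked 11 of 30000 in the pooled list and 11 of the 114 peaks that passed the irreproducible discovery rate (IDR) threshold, a statistic built on the agreement of ranks between replicates. The IDR list held exactly the 114 strongest peaks of the pooled list, with signals of 32.5 or more, so these ranks are a single fact. The next strongest was at the 3′ end of mom-5, at pooled rank 313 and outside the IDR list. Every other peak at the 10 genes, 41 in all, had a pooled rank of 2565 or worse. Signal values are the authors' own and were compared only within a list. The pooled list holds weak background regions by design, so a place in it is not evidence of binding. In whole larvae, binding in a few cells and weak binding in many cannot be told apart.

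The sequences below show 201 bp centred on the pooled summit, in WBcel235 (ce11), 5′ to 3′ on the plus strand. Capitals mark matches to 4 short sequences searched on both strands, namely the Meis core TGACAG, the Hox-PBC sequence TGATNNAT, GAGAGA and ACACAC. The first is the mom-1 intron site at chrX:6296516-6296716, which carries the strongest signal and held none of the 4. The second, at chrX:6292877-6293077, is the peak nearest to the start of mom-1, with ACACAC on the minus strand. The third, at chrIV:10065203-10065403 upstream of cwn-2, is the weak peak with a pair of Meis cores, here on the minus strand as CTGTCA, beside a minus-strand GAGAGA. The last, at chrV:3444948-3445148, is the promoter peak of cfz-2, a gene on the minus strand, with no match.
mom-1 intron: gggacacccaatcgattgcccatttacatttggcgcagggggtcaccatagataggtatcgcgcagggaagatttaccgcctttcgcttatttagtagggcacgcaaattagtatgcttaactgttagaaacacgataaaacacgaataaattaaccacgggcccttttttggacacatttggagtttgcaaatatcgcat
mom-1 start: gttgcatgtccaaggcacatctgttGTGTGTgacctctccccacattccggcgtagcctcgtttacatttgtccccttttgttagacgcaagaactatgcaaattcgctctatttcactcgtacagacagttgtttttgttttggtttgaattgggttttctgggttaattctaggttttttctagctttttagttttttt
cwn-2 upstream: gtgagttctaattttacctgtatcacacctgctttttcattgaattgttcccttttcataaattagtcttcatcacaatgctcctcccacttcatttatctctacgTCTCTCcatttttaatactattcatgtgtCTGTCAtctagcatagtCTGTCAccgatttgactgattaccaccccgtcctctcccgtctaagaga
cfz-2 start: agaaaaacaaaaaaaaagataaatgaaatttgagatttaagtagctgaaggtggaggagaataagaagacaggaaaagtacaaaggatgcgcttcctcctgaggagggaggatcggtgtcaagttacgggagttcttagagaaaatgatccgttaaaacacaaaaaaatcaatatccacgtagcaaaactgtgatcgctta

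The gene mom-1 (WBGene00003394) spans 6293112 to 6298305 on the plus strand of chromosome X and has 1 annotated transcript of 8 exons. Its IDR peak ran from 6296428 to 6296803, with the summit at 6296616, 3504 bp downstream of the gene's start. The summit lay in intron 7, which at 1299 bp is the longest of the 7 introns, and 123 bp beyond the end of exon 7. The pooled signal value was 59.1, against 32.5 for the weakest IDR peak and a list median of 11.4. In replicate 1 the overlapping peak had a signal of 32.3 and ranked 7 of 15466, and in replicate 2 it had a signal of 30.6 and ranked 26 of 24524. Both replicates thus placed this site among their 26 strongest. Their summits lay 6 bp from the pooled summit in replicate 1 and 97 bp from it in replicate 2. By annotated starts the pooled summit is slightly closer to the next gene downstream, cest-16, whose start lies 3326 bp away. Counted only for the gene with the nearest start, the peak therefore leaves mom-1, and the gene's best pooled rank becomes 4233. The replicate 2 summit, at 6296519, is nearer to the start of mom-1, at 3407 bp. Only 15 protein-coding genes, or 0.0751%, had a pooled peak of better rank in their window.

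The remaining 4 pooled peaks at mom-1 were weak. The strongest of them had its summit 135 bp upstream of the start, a pooled signal of 15.9 and rank 4233. In replicate 2 it overlapped a peak of signal 9.07 and rank 4358, with its summit 1 bp away, and a second of rank 8592, and in replicate 1 it overlapped none. A peak in the coding sequence of exon 3, 1530 bp downstream of the start, had a pooled signal of 14.5 and rank 6280, and a replicate 1 peak of rank 14577 with its summit at the same base. The 2 others, at 2559 and 3299 bp upstream, lay in introns of the neighbour lev-9, which encodes a secreted protein that gathers acetylcholine receptors at muscle, and had ranks 17984 and 20769. Apart from the intron site, no peak at mom-1 was found in both replicates.

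**Figure D1:**
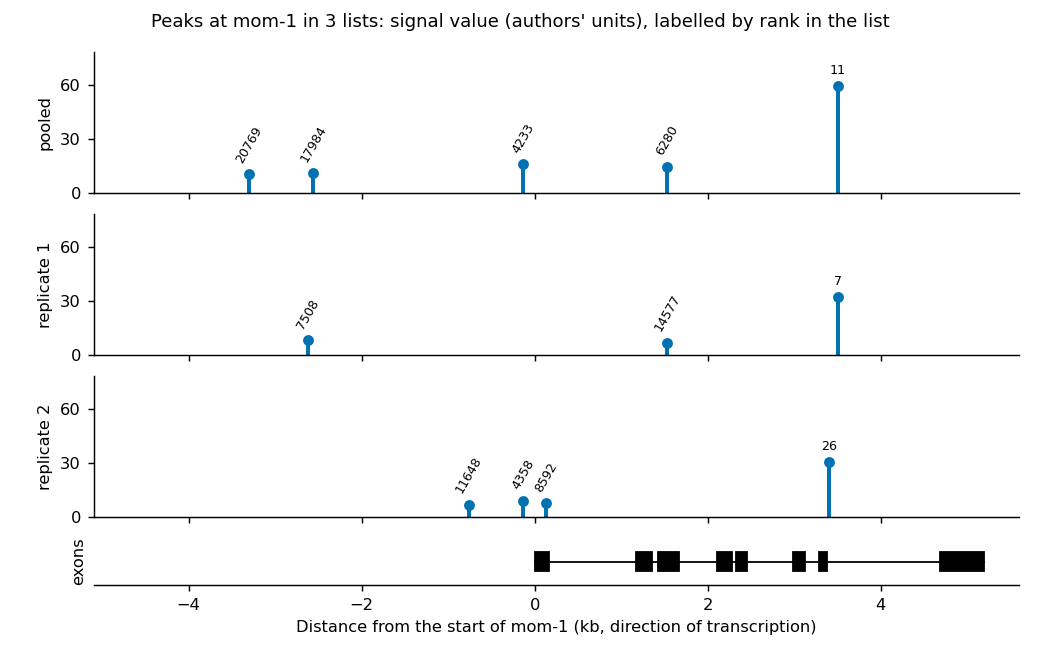
Peaks with summits from 5 kb upstream of mom-1 to its end, in the pooled list and in each replicate's list. Height is the authors' signal value, the number is the rank in that list, and boxes are exons. The intron peak, 3504 bp from the start, ranks 11, 7 and 26, and the other labelled peaks have ranks of 4233 or worse.

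Of the receptors, mom-5 had the most signal. This Frizzled gene (WBGene00003397), which acts with the ligand MOM-2 in the early embryo, spans 9965574 to 9970037 on chromosome I, plus strand. Its strongest pooled peak had its summit at 9969752, in the 3′ UTR and 285 bp before the gene's end, with a signal of 25.8 and rank 313. The replicates gave this site signals of 11.7 and 11.5, at ranks 1375 and 1464, with summits 3 and 14 bp from the pooled one. So the site was among the 1000 strongest of the pooled list but of neither replicate's list. The gene tsp-7, a tetraspanin gene on the minus strand, ends at 9969972, so the peak lies where the 2 genes converge. Only 2.39% of protein-coding genes had a pooled peak of better rank.

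Upstream of mom-5 lay 4 more pooled peaks. The summit 3131 bp upstream had a pooled signal of 17.5 and rank 2565, with ranks of 7334 and 1197 in replicates 1 and 2. That at 1812 bp had a signal of 15.8 and rank 4322, with ranks of 8353 and 7533. These 2 sites were found in both replicates, but their nearest annotated start was that of algn-10, at 466 and 1785 bp. The peaks at 881 and 2459 bp upstream had pooled ranks of 12889 and 22374 and a peak in replicate 1 only. With 3 of its 5 pooled peaks found in both replicates, mom-5 had more such peaks than any other of the 10 genes.

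The other Frizzled genes had no pooled peak above a signal of 14.3. At lin-17 (WBGene00003006), from 2706883 to 2717549 on chromosome I and known to act with lin-44 in the polarity of tail cells, the strongest of 6 pooled peaks lay in an intron 8418 bp downstream of the start, with a signal of 14.3 and rank 6660. Both replicates had a weak peak there, at ranks 15402 and 22158. A further intron peak at 1466 bp had pooled rank 10742 and ranked 1890 in replicate 1, the best rank of lin-17 in any list, and 13236 in replicate 2. Another, of rank 16691, had its summit 2 bp before the annotated start and overlapped a peak in replicate 1 only. At mig-1 (WBGene00003238), from 948569 to 957456 on chromosome I, minus strand, and known for neuroblast migration, the strongest of 4 pooled peaks was in an intron 5669 bp downstream of the start, with a signal of 13.3 and rank 8908, and none of the 4 was found in both replicates. At cfz-2 (WBGene00000478), a Frizzled gene that spans 3441504 to 3444877 on chromosome V, minus strand, 3 of 5 pooled peaks had ranks between 6996 and 9083. They lay 1937, 171 and 4322 bp upstream, with signals of 14.1, 13.5 and 13.2. Each had a peak in 1 replicate only, replicate 1 for the summit at 171 bp (rank 5655) and replicate 2 for the others (ranks 15067 and 10576).

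The 5 ligand genes carried weak peaks only, with best pooled signals from 11.3 to 14.3. The posterior Wnt egl-20 (WBGene00001188), which directs migration of the left Q neuroblast, spans 9812357 to 9815532 on chromosome IV, minus strand. Its strongest pooled peak was in an intron 2078 bp downstream of the start, with a signal of 14.3 and rank 6676. A coding-exon peak at 1185 bp had a signal of 12.3 and rank 11681. Replicate 2 ranked these sites 4901 and 3748, while replicate 1 had no summit anywhere in the egl-20 window. At lin-44 (WBGene00003029), the Wnt of the tail epidermis, from 4126056 to 4129310 on chromosome I, the strongest pooled peak lay 680 bp upstream with a signal of 13.8 and rank 7983. Replicates 1 and 2 ranked it 7095 and 22524. The best rank of lin-44 in replicate 1 was 4760, for an intron peak that overlapped the pooled peaks at 2347 and 2588 bp downstream.

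The remaining 3 ligands had still lower pooled ranks. At cwn-2 (WBGene00000858), from 10067816 to 10070251 on chromosome IV, the best of 4 was 11884, with a signal of 12.3, for a summit 4995 bp upstream, just inside the window. That summit lay 28 bp from the start of ipla-7, in its 5′ UTR. The pair of Meis cores shown above belongs to a cwn-2 peak of rank 22303, 2513 bp upstream, which overlapped a peak in replicate 2 alone (rank 21193). At cwn-1 (WBGene00000857), from 130983 to 133598 on chromosome II, minus strand, the best pooled rank was 12617, with a signal of 12.1, at 893 bp upstream, and the replicates ranked that site 4331 and 23770. At mom-2 (WBGene00003395), from 8355988 to 8358185 on chromosome V and known to polarise the endoderm precursor of the early embryo, the best pooled peak was in a coding exon 850 bp downstream of the start. Its signal of 11.3 and rank of 15405 put it below the median of the pooled list, yet replicate 2 ranked the site 2600, while replicate 1 had no overlapping peak. Just outside the windows, the closest pooled summit lay 5389 bp upstream of mom-2, with a signal of 10.1 and rank 21440. A window of 10000 bp upstream also took in a stronger pooled peak for mom-2, of rank 984.

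**Figure D2:**
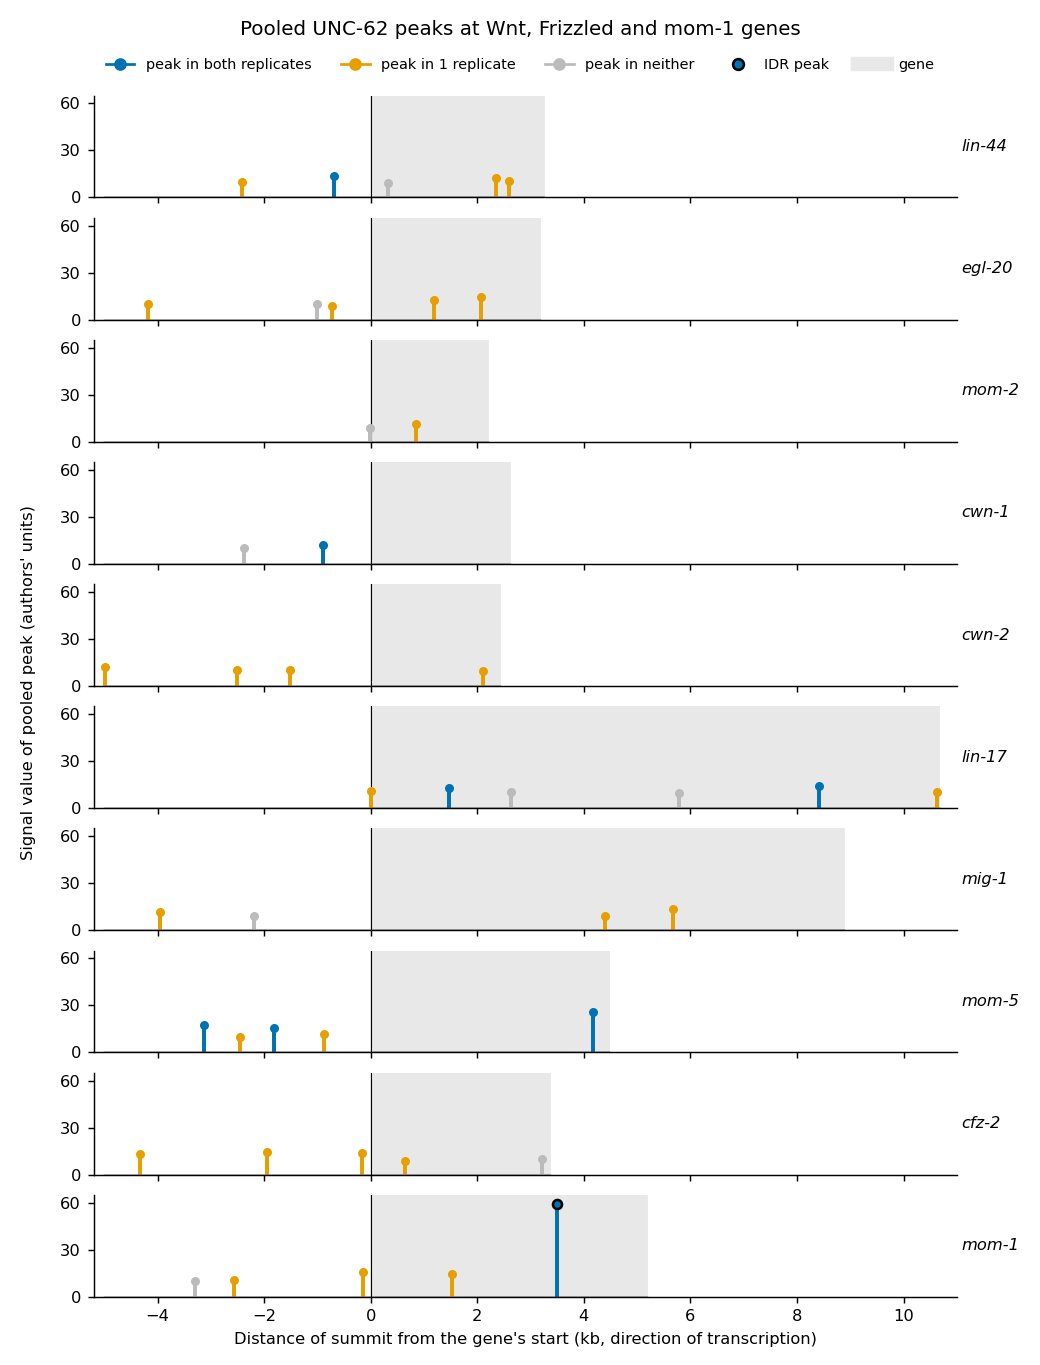
Pooled peaks at each of the 10 genes, by distance of the summit from the gene's start (x axis, kb) and the authors' signal value (y axis). Grey areas are the genes and colours give how many replicates had an overlapping peak. The mom-1 intron peak reaches 59.1 and the mom-5 peak 25.8, and the other 41 lie between 8.81 and 17.5.

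As a group the 10 genes were read against all protein-coding genes, as a description without a test, since the genes were chosen with these lists known. An IDR summit fell in the window of 1 of the 10 genes, against 0.871% of all genes, and that gene was included with its peak known. Among the 9 ligand and receptor genes there was none. A pooled summit among the 1000 of highest signal was found at 2 of the 10 genes, mom-1 and mom-5, against 7.61%. All 10 had some pooled summit, which holds for 87.6% of all genes, and 5 had one with an overlapping peak in both replicates, against 33.1%. Those 5 were lin-44, cwn-1, lin-17, mom-5 and mom-1. The median best pooled rank of the 10 was 7489.5, close to 7853 over the 17504 genes with a pooled summit. Windows of the 10 genes held 0.447 pooled summits per kb, against 0.305 over all windows. Their windows were also longer, with a median of 8.31 kb against 7.03 kb.

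**Figure D3:**
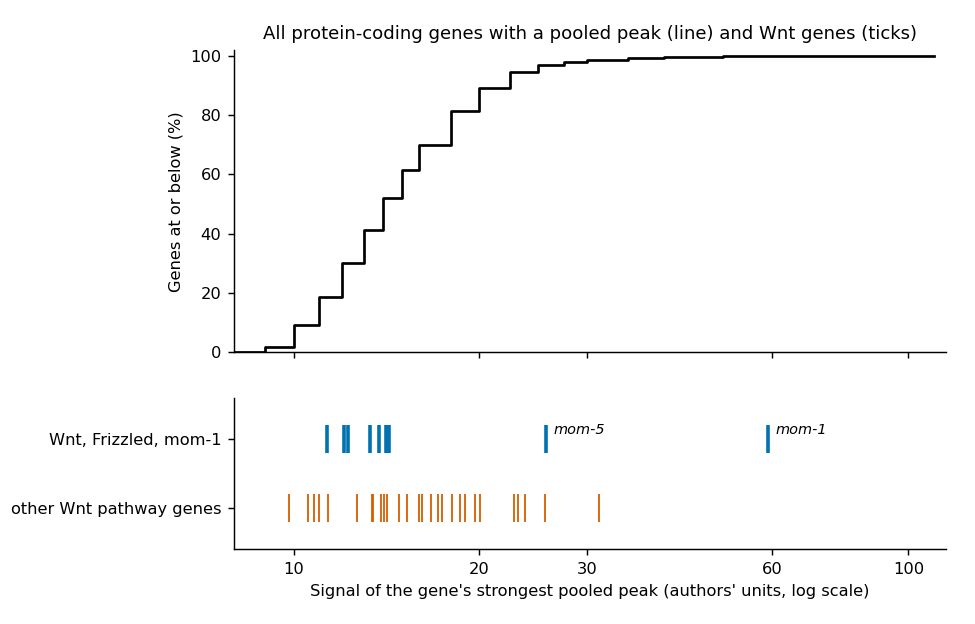
Signal of the strongest pooled peak in each gene's window. The line gives the cumulative share of all protein-coding genes with a pooled peak, in steps at the upper edge of signal bins. Ticks are the 10 genes (blue) and other Wnt pathway genes (orange). Of the 10, mom-1 at 59.1 and mom-5 at 25.8 stand to the right and the other 8 lie between 11.3 and 14.3.

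The replicates shared peaks at these genes about as often as over the whole pooled list. Both replicates had a peak overlapping 8 of the 43, or 18.6%, against 20.1% of all pooled peaks. These 8 include the mom-1 intron peak and the 3′ peak of mom-5. The 95% exact Clopper-Pearson interval was 8.39 to 33.4%. It covers counting error over peaks only and takes them as independent, although neighbouring peaks can overlap the same replicate peak. Of the 43, another 12 overlapped a peak of replicate 1 only, 14 of replicate 2 only and 9 of neither. The ligands had 2 of their 18 pooled peaks in both replicates, the Frizzled genes 5 of 20 and mom-1 1 of 5. When only the 5000 strongest peaks of each replicate counted, 2 of the 43 remained, or 4.65%, against 3.59% of all pooled peaks, and these were the mom-1 intron peak and the 3′ peak of mom-5. Under that rule 2 of the 10 genes had a shared peak, against 6.67% of all protein-coding genes. In each replicate's own list, mom-1 was the only one of the 10 genes with a summit among the 1000 strongest, which 7.62% of all genes had in replicate 1 and 6.97% in replicate 2. Best ranks were close in number at mom-5, with 1375 and 1197, and at cwn-2, with 10247 and 8848, but came from different sites. At mom-5 they belonged to the 3′ UTR in replicate 1 and to a summit 3042 bp upstream in replicate 2. At cwn-2 they belonged to a summit 1511 bp upstream in replicate 1 and to the 3′ UTR in replicate 2. By number, best ranks lay further apart at lin-44, mom-2, cwn-1, lin-17, mig-1 and cfz-2. This sorting depends on list length. As percentages of the replicate 1 and 2 lists, best ranks were 66.3% and 36.1% at cwn-2, and 36.6% and 43.1% at cfz-2. At cwn-1 the best rank was 4331 in replicate 1 and 23770 in replicate 2, and at mom-2 it was 7206 and 2600, from different sites. The lists differ in length, so these ranks show no change in binding.

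**Figure D4:**
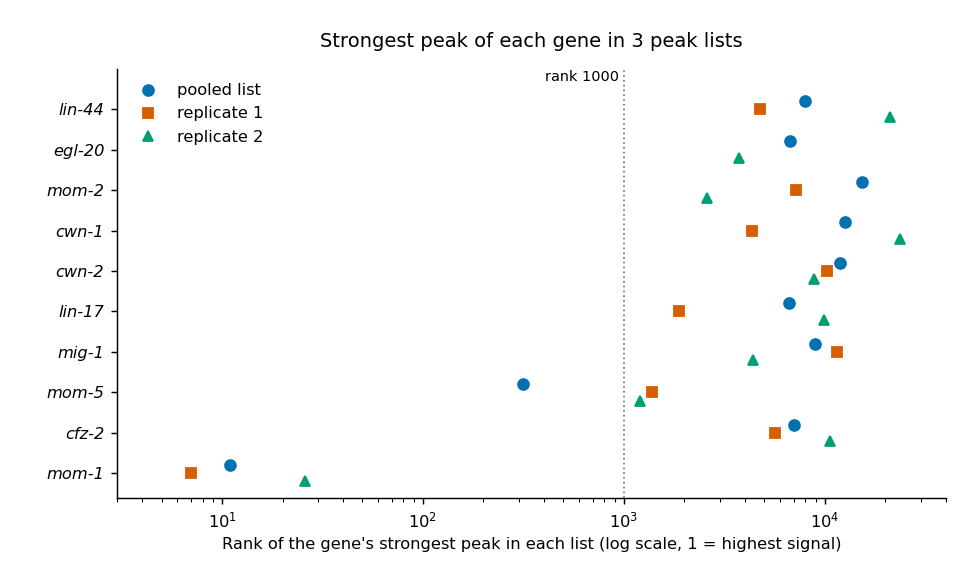
Rank of the strongest peak of each gene in the pooled list and in both replicates' lists, on a log axis. Only the mom-1 ranks (11, 7 and 26) and the pooled rank of mom-5 (313) lie left of rank 1000. No point is drawn for egl-20 in replicate 1, whose list had no summit there.

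The summits lay in several kinds of place. The same shares over all genes are not given here, so the counts below describe these windows and do not set the 10 genes apart. Each window includes 5000 bp of upstream sequence. Of the 43, 24 were upstream, 11 in introns, 5 in coding exons and 3 in 3′ UTRs. Within 1000 bp of a gene's start lay 11 summits, at 8 of the 10 genes, with pooled ranks from 4233 to 29827. For 14 summits, including both of the strongest, the nearest protein-coding start belonged to another gene, and 7 lay within another annotated gene.

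Matches to the searched sequences differed between the 2 strongest sites, mom-1 and mom-5. The Meis core TGACAG was within 100 bp of 2 of the 43 summits, or 4.65%, against 7.57% of all 30000 pooled windows of 201 bp and 13.2% of the 114 IDR windows. Both were weak peaks, the cwn-2 peak of rank 22303 and the mig-1 intron peak of rank 8908. TGATNNAT was in 8 windows, or 18.6%, against 16.5% of all pooled windows and 18.4% of IDR windows. GAGAGA was also in 8, against 13.6% of all pooled windows and 43.0% of IDR windows. ACACAC was in 4, or 9.30%, against 8.54% of all pooled windows and 36.0% of IDR windows. The matches of TGATNNAT at the cwn-2 peak of rank 11884 overlap each other on the 2 strands. At least 1 of the 4 sequences was in 39.5% of the windows, 38.4% of all pooled windows and 71.1% of IDR windows, and the mom-1 intron window is among the 33 IDR windows with none. The mom-5 window at rank 313 held GAGAGA only. The mom-1 intron window had a GC content of 43.8%, against medians of 38.3% for the 43 windows, 35.8% for all pooled windows and 45.3% for IDR windows. No match means only that these letters are missing from the window.

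Other genes of the pathway, 30 in number, carried no IDR summit. Only 0.871% of all genes had one, so this count does not set them apart. Of the 30, 5 had a pooled summit among the 1000 of highest signal, or 16.7%, beside the 7.61% of all genes given above. The strongest was at mtm-3, a myotubularin phosphatase gene listed here with Wnt secretion, 1214 bp upstream of its start with a pooled signal of 31.4 and rank 135, just under the weakest IDR peak at 32.5. The replicates ranked it 50 and 140. Next came mom-4, a kinase gene of the nuclear branch, at rank 324, with a signal of 25.6 in a coding exon and replicate ranks of 520 and 1085. The kinase gene gsk-3 had rank 473, with replicate ranks of 2028 and 2309, though its peak lay 178 bp from the start of Y18D10A.4. The receptor kinase gene cam-1 had rank 544, in an intron 100 bp from one of its own starts, with replicate ranks of 5762 and 1032. The retromer gene vps-29 had rank 596, for a summit 4418 bp upstream and nearer to the start of ZK1128.3. Its replicate ranks were 2432 and 1631. None of these last 3 sites was among the 1000 strongest of either replicate. The 3 Dishevelled genes and the 4 beta-catenin genes had none among the 1000 strongest pooled peaks, and snx-3 and sys-1 had no pooled summit at all. By each replicate's own list the genes with a summit among its 1000 strongest were mostly different. They were mtm-3, mom-4, gsk-3, pry-1, bar-1 and hmp-2 in replicate 1, and mtm-3, cam-1, dsh-1, lit-1 and pop-1 in replicate 2. These are 20% and 16.7% of the 30 genes, against 7.62% and 6.97% of all genes in replicates 1 and 2. So 1 gene, mtm-3, was in both sets of 6 and 5. The share of all genes found in both sets was not computed, so this overlap is not read as a trait of the pathway. The summits that placed gsk-3 and cam-1 there belong to other peaks than their pooled ones described above. The set thus included beta-catenin genes in replicate 1 (bar-1 and hmp-2) and a Dishevelled gene in replicate 2 (dsh-1). The median best rank of the 28 with a pooled summit was 3941.5. Windows of the 30 genes were longer, with a median of 9.975 kb against 7.03 kb over all genes, and length was not accounted for.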

How the data were processed

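Peak lists in narrowPeak format from 2 biological replicates of 1 group were used in ce11. Per the deposited readme texts, lists were made for each replicate and for both pooled, against a control alignment, and the IDR list was derived from these. Not given in the sources used here are the peak caller, the aligner and the IDR cutoff. The signal value of each peak is as deposited by the authors, with no stated scale, and ranks within a list follow it. Column 9 as deposited has values below 0 at 29433 of 30000 pooled peaks, so it was taken for a score and left aside. Peaks were 376 bp wide, and 390 bp in replicate 2. Read depth is unknown.

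Summits were assigned to windows from 5000 bp upstream to the end of each gene, with Ensembl release 115 genes of WBcel235, and a summit could count for several genes. The ce10 lists were not used. Replicate peaks were matched by an overlap of at least 1 bp. Sequence came from the WBcel235 assembly in RefSeq. Members, lists and sequences were chosen with earlier results of these data known, so no test was made. All 10 genes were named, with pathway genes that had an IDR summit or a pooled summit among the 1000 of highest signal. Window, overlap, rank and motif functions were tested on simulated data. Alternatives covered windows, assignment rules, overlap rules and each replicate's list alone. Tables were handled with pandas 2.3.3 and NumPy 2.4.6 in Python 3.11.15, intervals computed with SciPy 1.17.1 and plots drawn with matplotlib 3.10.9.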

Additional observations from a re-analysis of the deposited data

How the results depend on the processing

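Of 53 alternative values of the main results, 38 kept within 1.5 times the reported count or rank, or within the interval of the reported share. With a replicate left out, the 114 strongest peaks of the other replicate stood in for the IDR list. The stricter IDR list kept the 57 strongest IDR peaks, so the mom-1 peak at rank 11 stayed in it by construction. The IDR count of the 10 genes stayed at 1, always mom-1, except with summits counted for the nearest start only, which gave 0, as it did for peaks among the 1000 of highest signal. With either replicate left out, that second count was 1. Summits in the windows then numbered 25 in replicate 1 and 29 in replicate 2, and the median best ranks were 4760 and 6625. These values come from single lists shorter than the pooled one, and the 4760 leaves out egl-20, which had no replicate 1 summit. The strongest peaks with TGACAG numbered 0. Other pathway genes among a replicate's 114 strongest peaks numbered 0 to 1, the 1 being mtm-3 in replicate 1. Only mtm-3 of the other pathway genes was among the 1000 strongest of both replicates, and the same share over all genes was not computed. With the 5000 strongest peaks of each replicate, genes with a shared peak fell to 2, against 6.67% of all genes, and the share of shared peaks to 4.65%, against 3.59% of all pooled peaks. Other pathway genes among the strongest peaks numbered 3 with 2000 bp upstream, 3 among the 500 and 9 among the 2000 of highest signal. Shares of all genes under these settings were not computed. TGACAG within 50 bp was at 0 strongest peaks, against 1 within 100 bp. With 10000 bp upstream, mom-2 gained a pooled peak of rank 984. That made 3 of the 10 genes with a peak among the 1000 of highest signal, and the share of all genes at that width was not computed. Ranking by column 8 was not run, since it holds -1 at every peak. No paired analysis was possible because there is 1 group. Depth is unknown, so a weak or missing peak does not show absence of binding.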

Other observations

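In the windows of the 10 genes, 10 replicate summits belonged to peaks that overlapped no pooled peak, at 7 of the genes. They were 5 of the 25 summits of replicate 1 and 5 of the 29 of replicate 2. The same share over all replicate peaks was not computed, so these counts do not set the genes apart. The strongest by rank was in an intron of mig-1, at rank 4402 of replicate 2 with a signal of 9.05. Replicate 1 had such a peak 3444 bp upstream of mom-2 (rank 7206) and another in a coding exon of mom-5, 169 bp downstream of the start (rank 8785). In replicate 2 the summit 764 bp upstream of mom-1, at rank 11648 with a signal of 6.83, lay within an annotated tRNA gene, WBGene00023133.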
